A study of Mus musculus with 24 samples.

Results

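The genes described here are 40 interferon-response and MHC class I genes, chosen by name from the 24421 gene names in each deposited table, and all 40 were present. They fall into 6 groups by role: the 4 Ifit genes of the Ifit cluster, 7 genes of interferon signalling and its regulation, 4 nucleic acid sensors, 16 antiviral effectors and other interferon-induced genes, 3 interferon-inducible GTPases and 6 genes of antigen presentation. RNA came from GFP-sorted astrocytes of C57BL6 mice aged 20 weeks, with libraries made from 5 ng of total RNA. The astrocytes were taken from brainstem, cortex, hippocampus and olfactory bulb. In each region there were 3 libraries labelled knockout, of genotype NFIAfl/fl; Aldh1l1-CreER; Aldh1l1-GFP, and 3 control libraries, of genotype NFIAfl/fl; Aldh1l1-GFP, which makes 24 libraries in 8 groups. All groups therefore carried the floxed Nfia alleles and the GFP reporter, and only the libraries labelled knockout carried CreER, a Cre recombinase that needs tamoxifen to act. Cre and GFP are both driven by Aldh1l1 sequences, so recombination and sorting rest on the same astrocyte gene. When tamoxifen was given, and whether libraries came from separate animals, is not stated in the sources used here, so p-values measure only the spread between these libraries.

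Interferons are secreted signals that cells release when they sense viral nucleic acid, and type I interferon acts through a receptor that almost all cells, astrocytes included, carry. The receptor activates Stat2, which joins Irf9 in a transcription factor that binds the interferon-stimulated response element (ISRE) in the promoters of its many target genes. Targets include antiviral proteins such as the Ifit family, the sensors and signalling proteins themselves, and the machinery that presents peptides on MHC class I molecules. Astrocytes hold a low level of this programme at rest and raise it in infection and injury.

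Promoter windows of 250 bases before to 50 after the gene start were found for 31 of the 40 members in RefSeq sequence of build GRCm38.p6, the mm10 assembly. The ISRE core, GAAA repeated after any 2 bases and searched on both strands with overlapping matches allowed, was present in windows of 15 of these 31 members, or 16 of their 37 windows, against 3.44% of all 32851 mouse windows. The sequences of the 4 Ifit genes are shown because 3 of them carry the results below, and those of Stat2 and Bst2 because they are ISRE genes that moved the other way. Capitals mark the ISRE core, read as TTTC repeated after 2 bases where it lies on the opposite strand.
Ifit1, chr19:34640639-34640938, plus strand: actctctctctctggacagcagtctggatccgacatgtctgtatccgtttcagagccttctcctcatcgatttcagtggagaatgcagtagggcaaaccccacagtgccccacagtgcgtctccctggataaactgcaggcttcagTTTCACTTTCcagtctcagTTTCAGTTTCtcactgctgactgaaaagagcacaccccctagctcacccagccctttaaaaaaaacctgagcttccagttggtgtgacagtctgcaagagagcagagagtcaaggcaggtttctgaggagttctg
Ifit2, chr19:34550444-34550743, plus strand: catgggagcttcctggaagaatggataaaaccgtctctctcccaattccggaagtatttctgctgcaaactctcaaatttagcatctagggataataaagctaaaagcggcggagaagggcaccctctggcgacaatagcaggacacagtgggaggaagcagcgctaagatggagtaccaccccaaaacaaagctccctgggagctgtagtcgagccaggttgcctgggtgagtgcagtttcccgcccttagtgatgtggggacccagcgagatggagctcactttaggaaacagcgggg
Ifit3, chr19:34583279-34583578, plus strand: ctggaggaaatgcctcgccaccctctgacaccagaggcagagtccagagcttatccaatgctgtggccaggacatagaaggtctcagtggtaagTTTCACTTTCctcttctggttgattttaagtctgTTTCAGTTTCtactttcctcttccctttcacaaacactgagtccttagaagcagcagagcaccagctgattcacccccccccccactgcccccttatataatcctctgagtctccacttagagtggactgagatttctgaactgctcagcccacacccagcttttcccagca
Ifit3b, chr19:34607707-34608006, plus strand: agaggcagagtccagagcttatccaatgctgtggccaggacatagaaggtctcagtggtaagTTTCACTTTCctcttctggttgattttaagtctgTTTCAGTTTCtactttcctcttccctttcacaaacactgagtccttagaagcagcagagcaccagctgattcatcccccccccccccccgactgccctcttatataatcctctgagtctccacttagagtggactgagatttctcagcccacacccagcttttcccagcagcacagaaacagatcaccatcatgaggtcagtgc
Stat2, chr10:128270248-128270547, plus strand: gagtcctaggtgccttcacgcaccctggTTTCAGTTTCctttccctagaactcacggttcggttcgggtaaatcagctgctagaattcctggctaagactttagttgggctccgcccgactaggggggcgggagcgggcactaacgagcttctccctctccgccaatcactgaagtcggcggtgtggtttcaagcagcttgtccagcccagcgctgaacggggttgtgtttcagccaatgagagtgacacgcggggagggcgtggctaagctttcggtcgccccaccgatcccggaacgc
Bst2, chr8:71537423-71537722, minus strand: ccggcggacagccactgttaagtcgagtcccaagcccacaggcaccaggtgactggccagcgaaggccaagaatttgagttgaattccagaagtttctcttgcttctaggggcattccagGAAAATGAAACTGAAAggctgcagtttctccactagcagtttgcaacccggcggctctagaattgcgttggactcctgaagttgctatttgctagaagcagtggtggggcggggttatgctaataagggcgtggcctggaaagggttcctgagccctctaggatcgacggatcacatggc
Ifit1, Ifit3 and Ifit3b each had 2 matches, Stat2 had 1, and Bst2 had 2 that overlap. Ifit2 had no match in either of its 2 windows, and the first is shown. The Ifit3 and Ifit3b windows were identical in 259 of 340 alignment columns, or 76.2%, where columns with gaps count as differences. Their windows start at different points of the shared sequence, with the first ISRE core at base 95 in Ifit3 and 63 in Ifit3b. The figure thus understates how alike the shared part is. On the same count the other pairs of Ifit windows were 48.7 to 52.5% identical. Of other motifs, TTCNNNGAA, the core of the gamma-activated site, was in windows of 7 members against 8.30% of all windows. The palindromic nuclear factor I site, TTGGC and GCCAA with any 5 bases between them, was in a window of 1 member, Oasl1, against 0.0365% of all windows. A match describes these letters and is not evidence of binding.

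The libraries held 1090777 to 24297573 reads on genes, with the shallowest, brainstem labelled knockout 3, in the region of lowest depth. All values are normalised reads, that is, reads divided by a size factor per library. The 12 astrocyte markers were above 0 in every library. Nfia, the gene to be removed, went against the labels. It ranged over 7476 to 8602 in libraries labelled knockout and 4039.8 to 4996 in controls in olfactory bulb, 10614 to 13319.7 in libraries labelled knockout and 4556 to 7457 in controls in hippocampus, 7902 to 8906 in libraries labelled knockout and 4534 to 5526 in controls in cortex and 8768 to 10325 in libraries labelled knockout and 3313 to 6004 in controls in brainstem. It was thus higher in every library labelled knockout of a region than in any of its controls, and a count over the whole gene does not show whether a part of it was deleted. For this reason groups are called by their labels. Some libraries stood apart in the interferon genes themselves. Of the 30 tested members outside the Ifit cluster, olfactory bulb control 1 was the highest of the 3 controls in 27 and olfactory bulb control 3 the lowest in 22. In hippocampus, control 1 was the highest in 24 and control 3 the lowest in 23. In cortex, control 1 was the highest control in 19 and control 2 the lowest in 19, and labelled knockout 1 was the lowest of its group in 21.

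Levels per kilobase of exon, on a scale set jointly over all 24 libraries, spread widely among the members. The light chain of MHC class I, B2m, averaged 3966 normalised reads per kb. Next came Ifitm3, which blocks virus fusion, with 263, Ifi27 with 188, the heavy chains H2-K1 and H2-D1 with 100.2 and 98.9, Ifit3 with 98.5 and Ifit3b with 88.1. The other 33 members lay at or below 33.7 (Cmpk2). At the low end, 6 members did not reach 20 normalised reads in 3 libraries and were not tested: the antiviral genes Oas1a, Oasl1, Mx1 and Mx2, the sensor Dhx58 and the sensor of Z-form nucleic acid Zbp1. Mx1, at 0.273 per kb, had 26 reads in all libraries together and at least 1 read in 9 of them.

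In libraries labelled knockout, Ifit3 and Ifit3b rose while several other interferon genes fell, so the members did not move as a block. In hippocampus, Ifit3b and Ifit3 rose and the sensor Ifih1, the signalling factor Stat2 and Ifi27 fell. These are 5 of 34 tested members, where 2.51% of all 12673 genes were called at a Benjamini-Hochberg adjusted p under 0.05 in limma, 0.718% higher and 1.79% lower. In brainstem Ifit3b and Ifit3 rose, 2 of 34 members against 0.773% of all genes called and 0.544% higher, and in cortex Ifit3b rose, 1 of 34 against 0.324% called and 0.103% higher. In olfactory bulb no member was called, against 0.0868% of all genes. There limma gave 0 members at an unadjusted p under 0.05, and edgeR and DESeq2 called 0 as well. For the mean effect over the 4 regions, 3 members rose (Ifit3b, Ifit3 and Ifit2) and 4 fell (Ifi27, Bst2, Stat2 and Cmpk2), 7 of 34 against 5.88% of all genes, 2.79% higher and 3.09% lower. The median log2 fold change of the 34 tested members was -0.25 in olfactory bulb, -0.48 in hippocampus, 0.37 in cortex, 0.10 in brainstem and -0.07 for the mean, where medians over all genes were between -0.01 and 0.00. Fold changes are on the scale of log2 of the value plus 5, which understates changes of low genes.

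**Figure D1:**
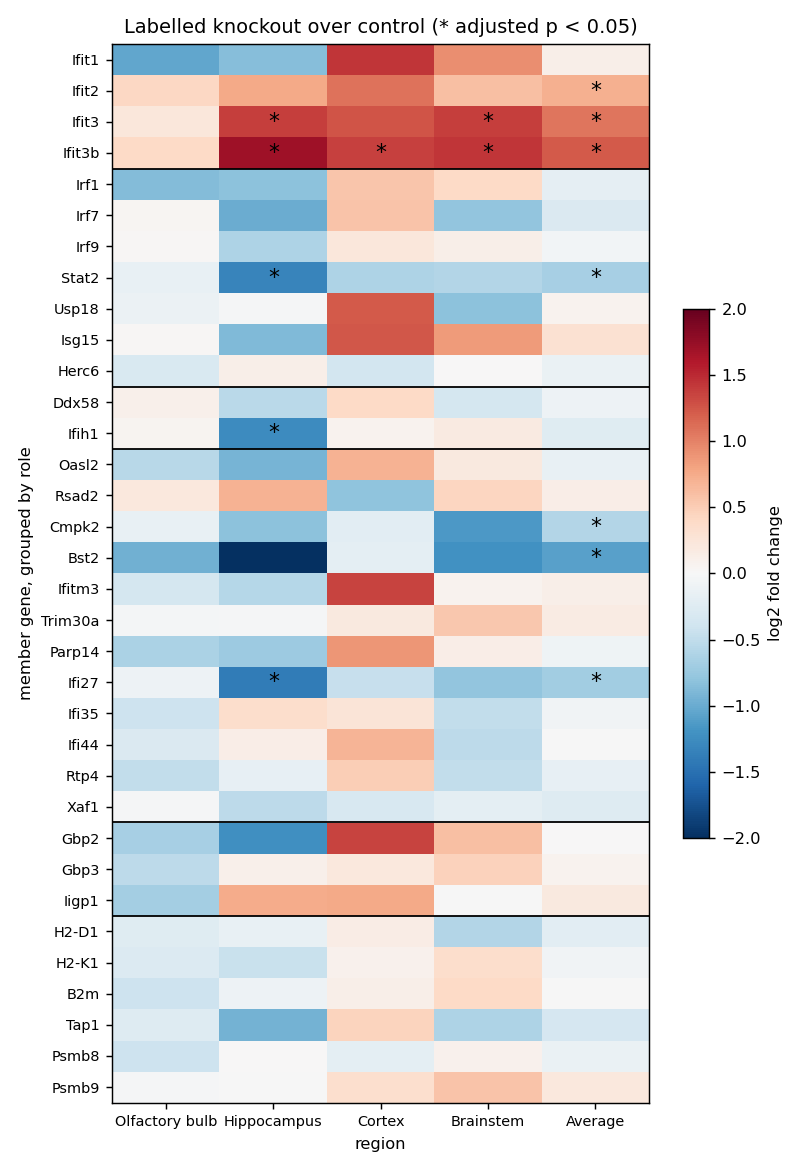
Colour shows the log2 fold change, labelled knockout over control, of the 34 tested members (rows, grouped by role) in each region and for the mean over regions (columns), cut at 2 in either direction, and asterisks mark limma adjusted p under 0.05. The Ifit3 and Ifit3b rows are red in every column, while rows such as Stat2, Ifi27 and Bst2 are blue.

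Ifit proteins bind foreign RNA and block its translation. Ifit3b, a close copy of Ifit3, had 158, 174 and 297 normalised reads in libraries labelled knockout, against 54.9, 62.4 and 59.6 in hippocampal controls. Cortex had 189.7, 213 and 203 in libraries labelled knockout and 68.6, 74.5 and 82.9 in controls, and brainstem had 244, 201 and 189.6 in libraries labelled knockout and 43.9, 134 and 71.2 in controls. Every library labelled knockout of these 3 regions lay above every control of its region. Ifit3b averaged 209.6 ± 76.3 in libraries labelled knockout and 58.9 ± 3.79 in controls (SD, n = 3 each) in hippocampus, a log2 fold change of 1.69 (SE 0.30, limma adjusted p = 0.00197). Its fold change on the log2 scale was 1.37 (limma adjusted p = 0.0369) in cortex and 1.42 (limma adjusted p = 0.0205) in brainstem. In olfactory bulb it had 299.7, 250.04 and 287 in libraries labelled knockout and 293, 238 and 131 in controls, where the groups overlapped, with a log2 fold change of 0.40 (SE 0.30, limma adjusted p = 1). The mean log2 fold change over regions was 1.22 (limma adjusted p = 5.23e-06).

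Ifit3, whose product steadies Ifit1 complexes in human cells, had 129, 182 and 223 normalised reads in libraries labelled knockout, against 52.9, 78.2 and 62.5 in hippocampal controls. It had 162, 176 and 184 in libraries labelled knockout and 60.01, 77.5 and 71.9 in cortical controls, while in brainstem the values were 206, 196 and 207 in libraries labelled knockout and 41.7, 146 and 66.8 in controls. The groups were again apart in all 3 regions, and in brainstem control 2 was the control nearest to the libraries labelled knockout. Its fold change on the log2 scale was 1.38 (limma adjusted p = 0.0158) in hippocampus and 1.38 (limma adjusted p = 0.0347) in brainstem, both called. Cortex reached 1.26 (limma adjusted p = 0.0893), which did not pass. Olfactory bulb had 332, 244 and 275 in libraries labelled knockout and 400.4, 207 and 164 in controls, overlapping, with a log2 fold change of 0.23 (limma adjusted p = 1). Over the 4 regions the mean was 1.06 (limma adjusted p = 8.88e-05).

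Ifit2 was called for the mean effect, with a log2 fold change of 0.72 (limma adjusted p = 0.0126), and in no single region. It had 77.03, 78.1 and 98.03 normalised reads in libraries labelled knockout, against 57.4, 27.8 and 30.5 in cortical controls, where the groups did not overlap. In hippocampus it had 114, 99.3 and 136 in libraries labelled knockout and 117, 58.6 and 40.9 in controls, and in olfactory bulb 195, 247 and 177 in libraries labelled knockout and 184, 159.9 and 120.3 in controls. Brainstem held 174, 169 and 121 in libraries labelled knockout and 51.4, 163 and 114 in controls. In those 3 regions the groups overlapped. Ifit1, which recognises RNA caps that lack methylation, did not follow the other 3 in every region. Olfactory bulb had 81.6, 44.5 and 130.4 in libraries labelled knockout and 335, 133 and 101 in controls, hippocampus 27.7, 30.1 and 10.5 in libraries labelled knockout and 98.2, 32.6 and 21.6 in controls. Cortex had 19.1, 45.9 and 69.2 in libraries labelled knockout and 12.9, 4.97 and 20.7 in controls, and brainstem 47.7, 56.3 and 155 in libraries labelled knockout and 27.8, 32.5 and 56.1 in controls. Groups overlapped in all 4 regions, and log2 fold changes were -1.04, -0.85, 1.44 and 0.93 in the same order, none called by limma (lowest adjusted p = 0.445).

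**Figure D2:**
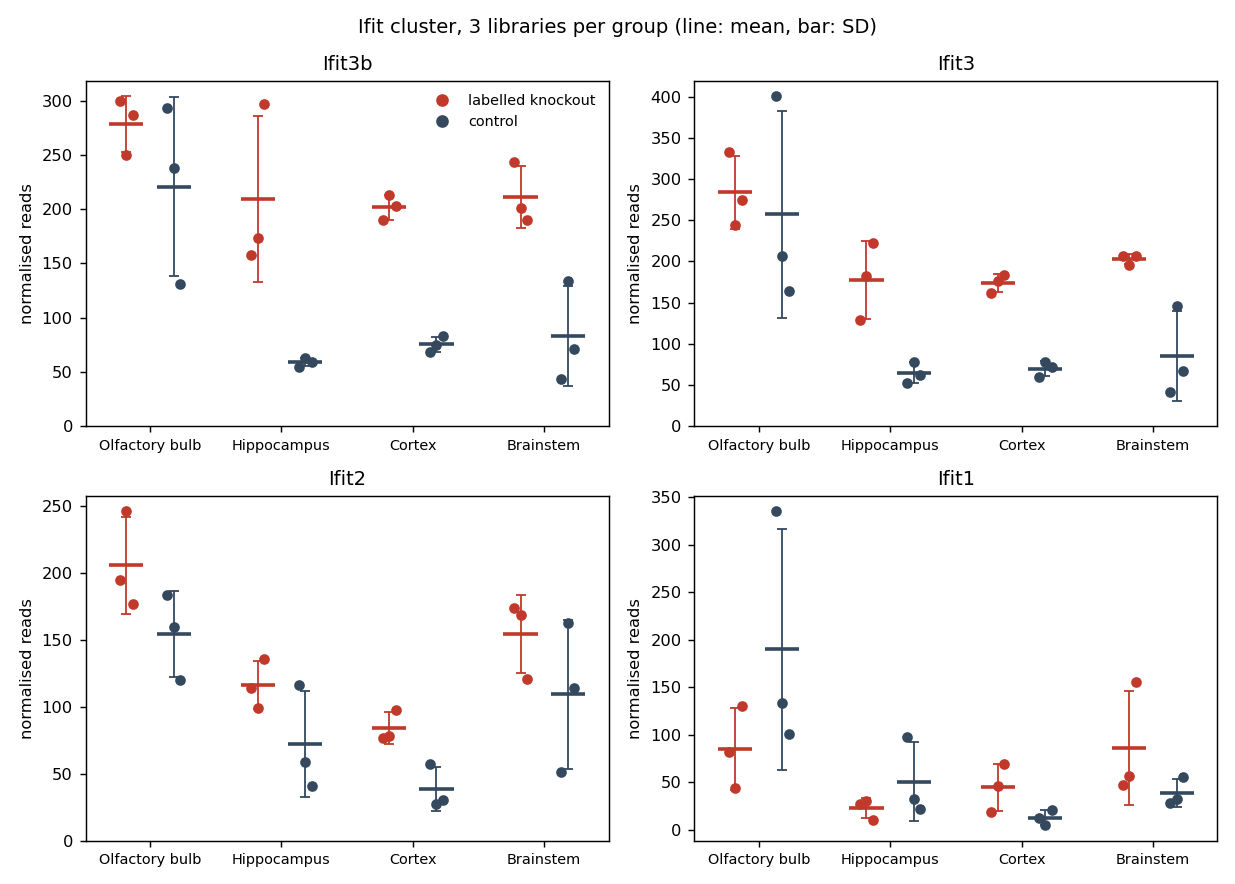
Each panel shows normalised reads (y axis, linear, from the deposited values) of an Ifit gene in the 4 regions (x axis), with libraries labelled knockout on the left in red and controls on the right in blue, lines for means and bars for SD, n = 3. For Ifit3 and Ifit3b the red points of hippocampus, cortex and brainstem all lie above the blue ones, and in olfactory bulb they overlap. Cortical values are on a scale of their own and are to be compared only within cortex.

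Leaving out single libraries changed some of these calls and none of their directions. The Ifit3b call in hippocampus and both mean effects held in every such fit. So did the mean effect of Ifit2. The Ifit3 call in hippocampus was lost without control 1 (limma adjusted p = 0.103), labelled knockout 2 (0.0674) or labelled knockout 3 (0.119). The Ifit3b call in cortex was lost when any of its 6 libraries was left out, at log2 fold changes of 1.31 to 1.43 over all fits and limma adjusted p up to 0.205. In brainstem, Ifit3b moved to 1.06 (limma adjusted p = 0.195) without control 1, 1.38 (limma adjusted p = 0.0775) without control 3, 1.32 (limma adjusted p = 0.0555) without labelled knockout 1 and 1.49 (limma adjusted p = 0.0523) without labelled knockout 3. Ifit3 lost its brainstem call in the same 4 fits, with 1.00 (limma adjusted p = 0.294), 1.31 (limma adjusted p = 0.108), 1.37 (limma adjusted p = 0.0653) and 1.37 (limma adjusted p = 0.0971) in the same order. edgeR called neither gene in brainstem, and DESeq2 called both there and both in cortex. With the brainstem libraries fitted alone, neither was called (limma adjusted p = 0.733 for both). Without the filter on low values the cortical Ifit3b call (limma adjusted p = 0.112) and the brainstem Ifit3 call (0.0728) were lost too. Brainstem control 1 also held the lowest summed level of astrocyte markers, 126776 normalised reads on the joint scale against 202563 and 340504 in the other controls. The part this has in the result was not tested, and in bulk samples fewer cells of a type and less RNA per cell cannot be told apart.

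The 4 genes lie together on chromosome 19 on the plus strand, in the order Ifit2 (chr19:34550694-34576419), Ifit3 (chr19:34583531-34588731), Ifit3b (chr19:34607970-34613401) and Ifit1 (chr19:34640871-34650009), by the GENCODE vM21 annotation of mm10. Ifit1bl1 and Ifit1bl2, further copies between them, held 103 and 120 reads in all libraries and were not tested. Of stretches of 50 bases in Ifit3 exons, 51.2% also occur in Ifit3b, and 44.5% of those of Ifit3b occur in Ifit3, so reads could be shared between them and their separate values are uncertain. With their reads summed, an alternative chosen after the data were seen, the pair had log2 fold changes of 1.58 in hippocampus (limma adjusted p = 0.00339), 1.35 in cortex (0.0398), 1.44 in brainstem (0.0169) and 0.31 in olfactory bulb (1). The 6 tested neighbours on either side, Stambpl1, Acta2, Fas, Lipa, Slc16a12 and Pank1, which were looked at after their values were known, had mean log2 fold changes from -0.83 to 0.21. Lipa, a lysosomal lipase, was the only one called by limma, lower in hippocampus with a log2 fold change of -1.31 (adjusted p = 0.00946).

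Stat2, a transcription factor activated at the interferon receptor, went the other way from Ifit3. It had 96.4, 37.4 and 53.7 normalised reads in libraries labelled knockout, against 183, 127 and 153 in hippocampal controls, with no overlap, and a log2 fold change of -1.32 (SE 0.35, limma adjusted p = 0.0400). Cortex had 69.6, 87.3 and 92.3 in libraries labelled knockout and 125, 101 and 167 in controls, also apart, with a log2 fold change of -0.61 (limma adjusted p = 0.949). In brainstem it had 153, 54.7 and 121 in libraries labelled knockout and 140.2, 197 and 132 in controls, and in olfactory bulb 177, 138 and 119 in libraries labelled knockout and 285, 121 and 115 in controls, both overlapping. The mean effect was called at -0.67 (limma adjusted p = 0.0217), and without olfactory bulb control 1 it was -0.56 (limma adjusted p = 0.0507). The hippocampal call was lost in 5 of 6 fits that left out a library, all but the one without labelled knockout 1, with limma adjusted p up to 0.237. edgeR did not call Stat2 in hippocampus, and DESeq2 did. The hippocampal call was also lost with the region fitted alone (limma adjusted p = 0.0517), and without the filter on low values both it (0.0995) and the mean effect (0.0554) were.

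None of the other 6 signalling genes was called in a region or for the mean. Isg15, the ubiquitin-like modifier, had 8.28, 36.7 and 33.9 normalised reads in libraries labelled knockout, against 11.1, 3.97 and 6.09 in cortical controls, a log2 fold change of 1.25 (limma adjusted p = 0.867). It had 9.01, 2.79 and 2.10 in libraries labelled knockout and 21.1, 13.96 and 4.84 in hippocampal controls, a log2 fold change of -0.88. Labelled knockouts 2 and 3 were the high cortical libraries, and knockout-labelled library 1 lay among the controls. In brainstem Isg15 had 14.2, 16.1 and 45.97 in libraries labelled knockout and 18.2, 8.13 and 6.47 in controls, and in olfactory bulb 64.2, 20.8 and 52.7 in libraries labelled knockout and 131, 24.2 and 19.7 in controls. Irf1, an early transcription factor of the response, had 11.2, 27.1 and 27.6 in libraries labelled knockout and 44.2, 46.8 and 35.5 in olfactory bulb controls. It was the only member whose olfactory bulb groups did not overlap, where 6.86% of all genes were lower without overlap, and its log2 fold change of -0.87 (limma adjusted p = 1) did not pass. Usp18, which removes Isg15 and dampens the receptor, had 4.97, 38.3 and 8.65 in libraries labelled knockout and 4.29, 0 and 4.88 in cortical controls. These few reads kept the groups just apart, with labelled knockout 2 alone high, and the log2 fold change of 1.23 (limma adjusted p = 0.917) did not pass. Irf7, which amplifies interferon production, had log2 fold changes from -0.99 in hippocampus to 0.56 in cortex. Irf9, the DNA-binding partner of Stat2, had log2 fold changes from -0.62 in hippocampus to 0.23 in cortex, and Herc6, an Isg15 ligase in mouse, from -0.37 in cortex to 0.11 in hippocampus.

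Among the sensors of viral RNA, Ifih1 (MDA5) had 132, 65.8 and 70.8 normalised reads in libraries labelled knockout, against 269.8, 208 and 166 in hippocampal controls. Its groups were apart there, with a log2 fold change of -1.25 (SE 0.29, limma adjusted p = 0.0146). The call was lost without control 1, labelled knockout 2 or labelled knockout 3, with limma adjusted p of 0.115, 0.0923 and 0.0970. Ifih1 had 277, 357 and 268 in libraries labelled knockout and 412, 245 and 238 in olfactory bulb controls, while in cortex the values were 82, 126 and 98.8 in libraries labelled knockout and 145, 89.4 and 67.04 in controls. Brainstem held 219, 357 and 264 in libraries labelled knockout and 214, 258 and 259 in controls. These groups overlapped, with log2 fold changes of 0.05, 0.07 and 0.17. Ddx58 (RIG-I) was not called in a region. It had 85.1, 175 and 86.1 in libraries labelled knockout and 143, 191 and 150.03 in hippocampal controls, while in cortex the values were 96.1, 62.8 and 101 in libraries labelled knockout and 98.6, 44.7 and 56.1 in controls. Brainstem had 68.4, 103 and 161 in libraries labelled knockout and 158, 148 and 104 in controls, and olfactory bulb 292, 201 and 181 in libraries labelled knockout and 382, 145 and 155 in controls. Control 1 was the highest control in olfactory bulb, cortex and brainstem, and groups overlapped in all 4 regions. Its log2 fold changes ran from -0.54 in hippocampus to 0.40 in cortex.

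Of the 12 tested antiviral effectors, 3 fell for the mean effect. Ifi27, an interferon-induced membrane protein, had 116, 102 and 117 normalised reads in libraries labelled knockout, against 432, 209 and 300.1 in hippocampal controls. The groups were far apart, with a log2 fold change of -1.39 (SE 0.32, limma adjusted p = 0.0174). Its values were 113, 103 and 83.6 in libraries labelled knockout and 168, 121 and 129 in cortical controls, also apart. In brainstem the values were 324, 395 and 201 in libraries labelled knockout and 801, 376 and 457 in controls, and in olfactory bulb 383, 271 and 229 in libraries labelled knockout and 527, 309 and 183 in controls, both overlapping. The mean effect was -0.69 (limma adjusted p = 0.0106) and held with every library left out in turn. The hippocampal call was lost without control 1 (limma adjusted p = 0.142) or without labelled knockout 1, 2 or 3 (0.0513, 0.0775 and 0.0665), and without the filter on low values (0.0525).

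Bst2, or tetherin, which holds budding virus at the cell surface, had 3.77, 5.02 and 0.6 normalised reads in libraries labelled knockout, against 51.03, 21.4 and 15.6 in hippocampal controls. The groups were apart, and the log2 fold change of -1.98 (limma adjusted p = 0.0553) did not pass in limma, while edgeR and DESeq2 called it. It had 27.1, 38.6 and 5.75 in libraries labelled knockout and 76, 44.7 and 40.97 in brainstem controls, again apart. In brainstem labelled knockout 3, the shallowest library, the value of 5.75 is 1 read. In olfactory bulb Bst2 had 21.4, 15.97 and 15.05 in libraries labelled knockout and 76.3, 37.1 and 18.6 in controls, overlapping. Cortex had 3.31, 22.97 and 7.93 in libraries labelled knockout and 22.3, 11.9 and 4.88 in controls, also overlapping. Its mean effect of -1.09 (limma adjusted p = 0.0192) held with each library left out. Cmpk2, a mitochondrial nucleotide kinase beside Rsad2, had 30.95, 45.01 and 11.5 normalised reads in libraries labelled knockout, against 51.4, 63.03 and 79.8 in brainstem controls, while in hippocampus the values were 46.95, 53 and 53.4 in libraries labelled knockout and 112, 71.7 and 104 in controls, apart in both regions. The Cmpk2 value of 11.5, in brainstem labelled knockout 3, also rests on few reads. Cortex had 62.95, 48.99 and 114 in libraries labelled knockout and 88.3, 78.5 and 80.4 in controls, and olfactory bulb 340.5, 307 and 319.8 in libraries labelled knockout and 477, 286 and 330.3 in controls. The mean effect was -0.58 (limma adjusted p = 0.0322) and held in 14 of 24 fits that left out a library. The libraries whose absence ended it were olfactory bulb control 1 and labelled knockout 2 and 3, hippocampal control 1 and labelled knockout 1, cortical control 1 and labelled knockout 1 and 2, and brainstem control 3 and labelled knockout 3, with limma adjusted p up to 0.0732. It was also lost without the filter on low values (limma adjusted p = 0.06003) and without all brainstem libraries, where the log2 fold change was -0.39 (limma adjusted p = 0.138).

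The most abundant effector per kilobase, Ifitm3, had 71.2, 257 and 156 normalised reads in libraries labelled knockout, against 84.02, 28.8 and 59.7 in cortical controls, where the log2 fold change of 1.35 (limma adjusted p = 0.835) did not pass. Labelled knockouts 2 and 3 were high and labelled knockout 1 lay among the controls, as for Isg15. It had 90.1, 61.4 and 121 in libraries labelled knockout and 257, 149.8 and 59.9 in hippocampal controls, while in brainstem the values were 82.5, 127 and 328 in libraries labelled knockout and 111, 109.8 and 246 in controls. In olfactory bulb it had 303, 271 and 152 in libraries labelled knockout and 569, 219 and 208 in controls. The remaining 8 tested effectors were not called in any region or for the mean. Their mean log2 fold changes lay between -0.26 for Xaf1, a partner of apoptosis inhibitors, and 0.16 for Trim30a. Rsad2 (viperin), Oasl2, Ifi35, Ifi44, Rtp4 and Parp14 lay between these.

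**Figure D3:**
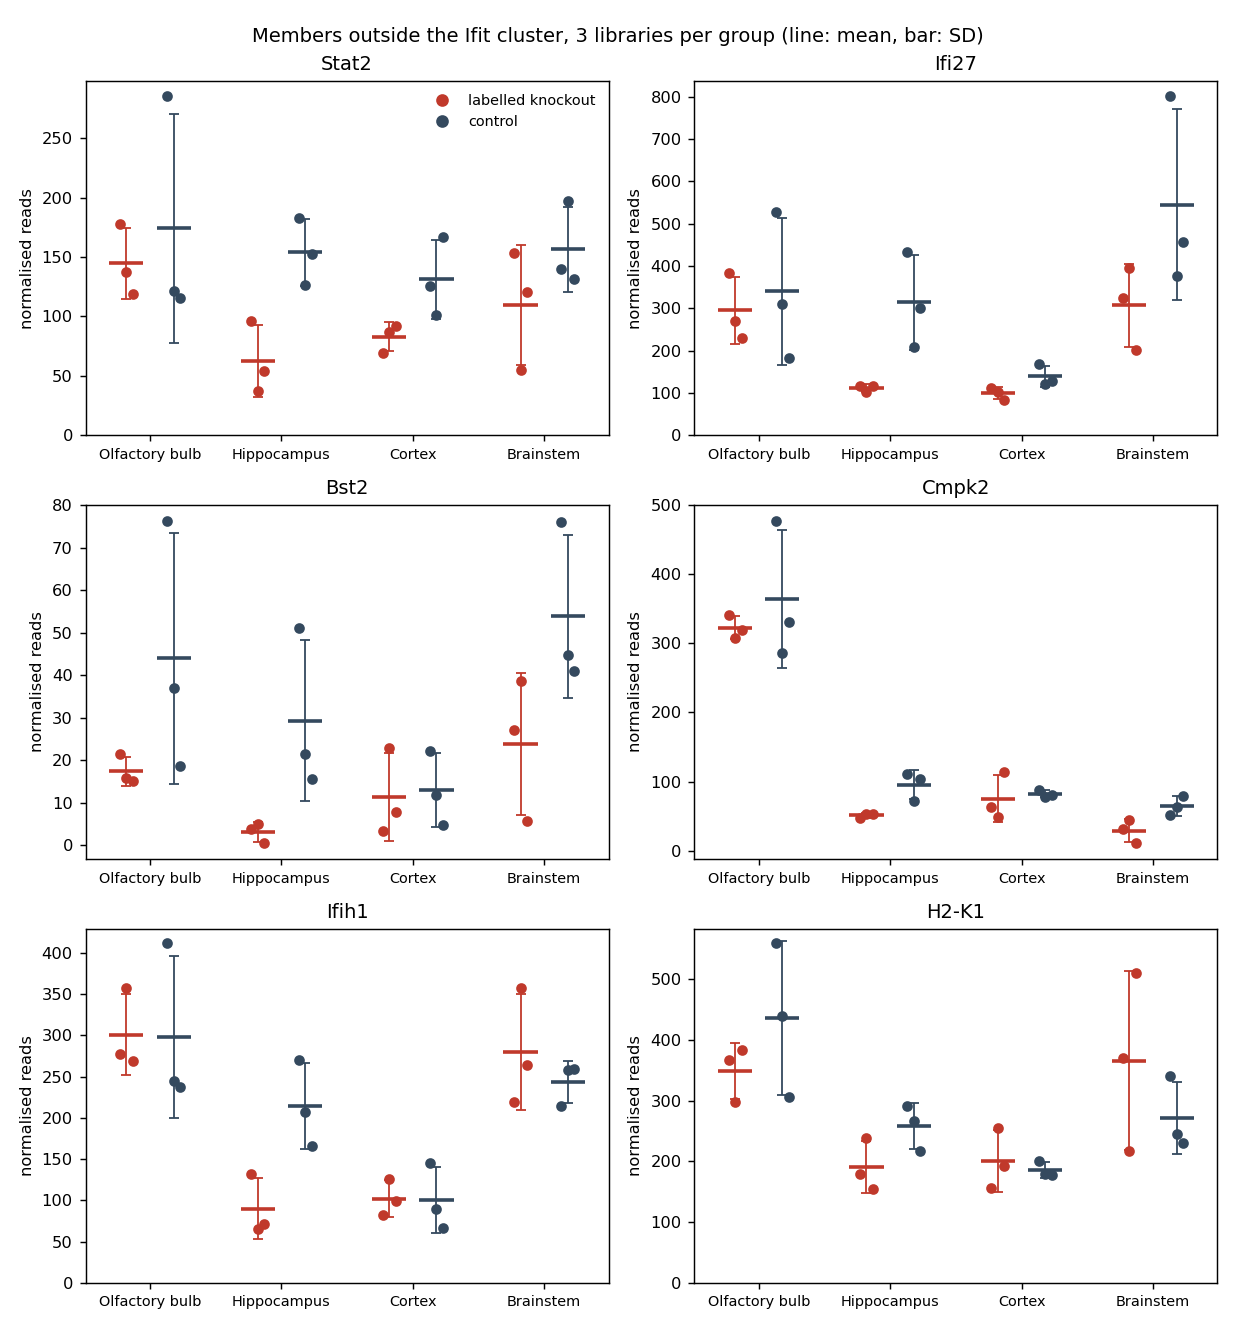
Normalised reads (y axis, linear, deposited values) of 6 members outside the Ifit cluster in the 4 regions (x axis), with libraries labelled knockout left in red and controls right in blue, lines for means and bars for SD, n = 3. In hippocampus the red points of Stat2, Ifi27, Bst2, Cmpk2 and Ifih1 lie below the blue ones, and those of H2-K1 overlap them. Control 1 is the highest control of olfactory bulb in every panel.

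No interferon-inducible GTPase was called. Gbp2, a guanylate-binding protein that attacks vacuoles of pathogens, had 19.1, 13.4 and 8.10 normalised reads in libraries labelled knockout, against 46.6, 40.02 and 27.2 in hippocampal controls, apart, with a log2 fold change of -1.23 (limma adjusted p = 0.263). It had 9.94, 76.6 and 58.4 in libraries labelled knockout and 6.86, 12.9 and 17.1 in cortical controls, with a log2 fold change of 1.35 (limma adjusted p = 0.617) in the opposite direction. Brainstem had 52.9, 14.5 and 51.7 in libraries labelled knockout and 26.8, 18.3 and 19.4 in controls, and olfactory bulb 38.7, 26.4 and 27.6 in libraries labelled knockout and 70.8, 62.2 and 30.1 in controls. The related Gbp3 had 48.6, 34.03 and 38.1 in libraries labelled knockout and 60.6, 55.8 and 13.03 in hippocampal controls, while in cortex the values were 9.94, 97.98 and 74.96 in libraries labelled knockout and 36.9, 17.9 and 78.01 in controls. For brainstem the values were 41.3, 65.9 and 97.7 in libraries labelled knockout and 29.97, 54.9 and 56.1 in controls, and for olfactory bulb 99.9, 59.04 and 50.2 in libraries labelled knockout and 243, 51.7 and 72.7 in controls. Its groups overlapped in all 4 regions. Iigp1, an immunity-related GTPase, had 32.6, 44.5 and 17.6 in libraries labelled knockout and 109.5, 48.5 and 22.97 in olfactory bulb controls, and log2 fold changes from -0.68 there to 0.76 in cortex.

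Antigen presentation did not differ detectably between the labels. None of its 6 genes was called by limma, edgeR or DESeq2 in any region or for the mean, and none had an unadjusted limma p under 0.05. B2m had 2799, 2846 and 2636 normalised reads in libraries labelled knockout, against 3691, 3667 and 1929 in hippocampal controls, while in cortex the values were 1715, 2590.5 and 2278 in libraries labelled knockout and 2125, 1788 and 2075 in controls. Brainstem had 3621, 4459 and 4648 in libraries labelled knockout and 2678, 4217 and 2902 in controls, and olfactory bulb 3657, 3344 and 3959 in libraries labelled knockout and 6946, 4666 and 3579 in controls. Groups overlapped in each region, and the mean log2 fold change was 0.00 (SE 0.11). The heavy chain H2-K1 had 179, 239 and 154 in libraries labelled knockout and 292, 267 and 217 in hippocampal controls, while in cortex the values were 156, 256 and 192 in libraries labelled knockout and 201, 179 and 178 in controls. Brainstem held 370.1, 217 and 511 in libraries labelled knockout and 340.4, 246 and 231 in controls, and olfactory bulb 368, 297 and 384 in libraries labelled knockout and 561, 440.1 and 307 in controls. All 4 pairs of groups overlapped, and the mean log2 fold change was -0.07 (SE 0.13). For H2-D1 it was -0.21 (SE 0.30). Of 50-base stretches of H2-D1, 5.44% also occur in H2-K1 and 4.75% in H2-Q7. Not all MHC class I genes were compared, so how many reads could be shared was not tested. The peptide transporter Tap1 was low, with 10.3, 12.8 and 0.6 in libraries labelled knockout and 11.5, 16.8 and 25.7 in hippocampal controls, 10.8, 26.03 and 1.44 in libraries labelled knockout and 9.43, 1.99 and 7.31 in cortical controls, while in brainstem the values were 12.9, 4.82 and 5.75 in libraries labelled knockout and 32.1, 4.07 and 15.1 in controls. Its log2 fold changes were -0.95, 0.45 and -0.61 in that order. Psmb8 and Psmb9, subunits of the immunoproteasome, had mean log2 fold changes of -0.13 and 0.22. Tap1 and Psmb9 overlap on opposite strands, and use of strand in counting is not stated, so their reads cannot be fully told apart. Other annotated genes also overlap B2m (Patl2) and, outside antigen presentation, Irf7 (Phrf1), Irf9 (Rnf31) and Rtp4 (Masp1).

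Whether the effect differed among regions was tested directly. In an F test over the 4 effects, limma called 0 of 34 members, where 0.0552% of all genes were called. There were 5 members at an unadjusted p under 0.05, edgeR called 0 and DESeq2 called 1, Gbp2. Against the mean of the other 3 regions, the effect in olfactory bulb differed by -1.09 for Ifit3b (limma adjusted p = 0.738, unadjusted p = 0.00370) and -1.11 for Ifit3 (0.738), on the log2 scale. The effect on Ifih1 in hippocampus differed from that elsewhere by -1.35 (limma adjusted p = 0.236). None of these passed, and 0% of all genes were called in either of these comparisons. Each had 5 members at an unadjusted limma p under 0.05. The share of all genes at that unadjusted level was not computed for these comparisons or the F test. The calls in some regions and not in others are not shown to be different effects. Members whose groups did not overlap were 2 higher and 6 lower in hippocampus (9.76% and 10.4% of all genes), 4 higher and 3 lower in cortex (7.23% and 7.21%), 2 higher and 2 lower in brainstem (5.41% and 5.65%) and 0 higher and 1 lower in olfactory bulb (7.19% and 6.86%). Ifit3 and Ifit3b were among the higher ones in each of the first 3 regions, with Ifit2 and Usp18 beside them in cortex. The counts of higher members in hippocampus and brainstem, 2 of 34 each, did not stand out from these shares. Nor did the counts of lower members in cortex, brainstem and olfactory bulb.

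The 24 tested interferon-induced members outside the Ifit cluster and antigen presentation were averaged in each library as mean log2 of the value plus 5 on the joint scale. In hippocampus this mean was 5.33, 5.08 and 4.67 in libraries labelled knockout, against 6.23, 5.69 and 4.75 in controls. The mean of Ifit3 and Ifit3b was 7.20, 7.51 and 8.03 in the same libraries labelled knockout. It was 5.87, 6.22 and 6.04 in controls. Hippocampal control 1, the library with the highest interferon mean of the 6, thus had the lowest Ifit3 and Ifit3b mean of them, and labelled knockout 3, with the lowest interferon mean, had the highest Ifit3 and Ifit3b mean. In olfactory bulb control 1 was the highest library in both, at 7.43 and 8.44.

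**Figure D4:**
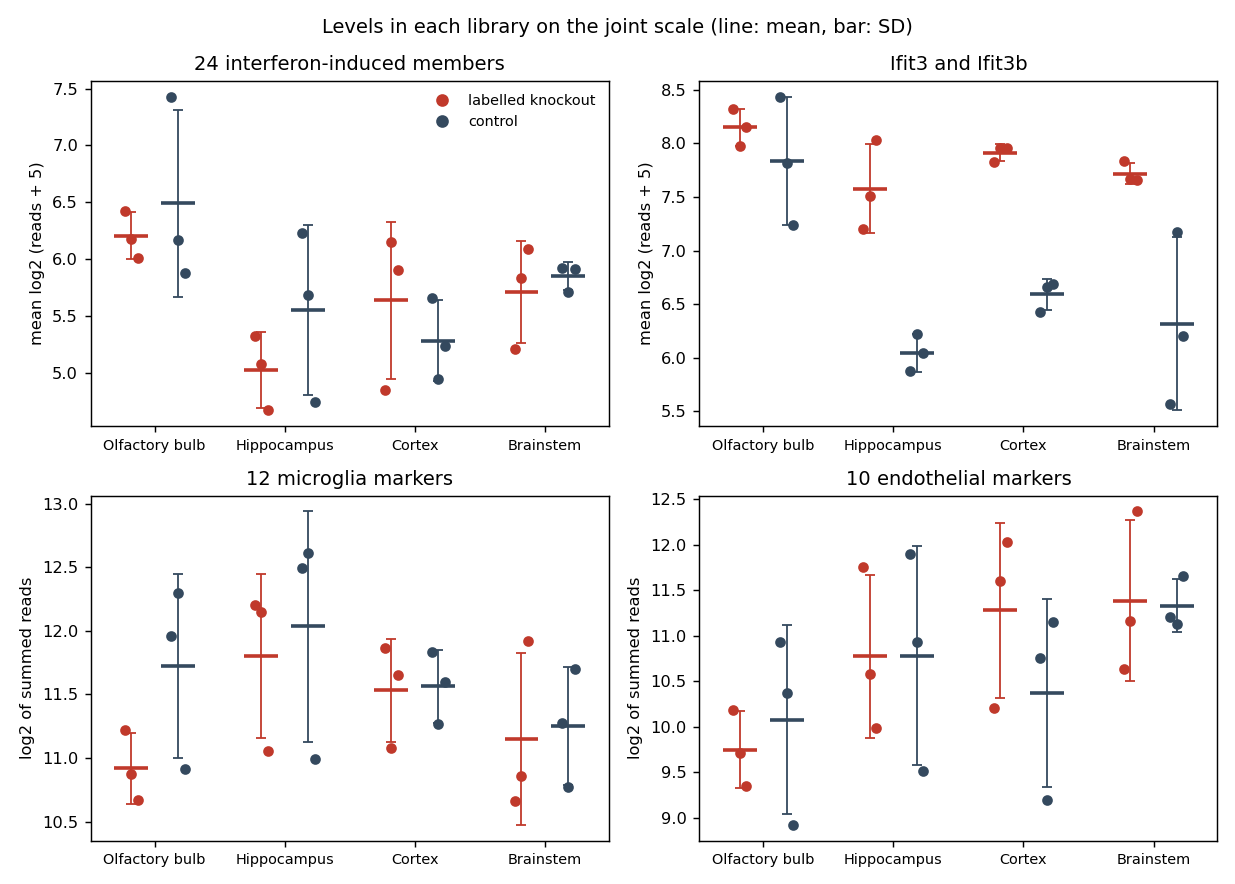
The upper panels show, for each library, the mean log2 of value plus 5 of 24 interferon-induced members and of Ifit3 and Ifit3b, and the lower panels the log2 of summed normalised reads of 12 microglia and 10 endothelial markers, all on the joint scale, by region. Libraries labelled knockout are left in red and controls right in blue, with lines for means and bars for SD, n = 3. The 2 groups separate in hippocampus, cortex and brainstem only in the panel of Ifit3 and Ifit3b.

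Markers of other cell types moved with some of these groups. In hippocampus, 5 of 6 tested choroid plexus and ependymal markers were lower in libraries labelled knockout, with a median log2 fold change of -4.87. Their summed levels were 2138 to 5962 in libraries labelled knockout and 71514 to 144615 in controls, and among the defining markers Ccdc153, Tmem212 and Folr1 were each at 0 in at least 1 hippocampal library. The part this has in the lower Stat2, Ifih1 and Ifi27 and the higher Ifit3 and Ifit3b there was not tested. In brainstem the same sums were 3997 to 91085 in libraries labelled knockout and 50038 to 239622 in controls, in cortex 341 to 7845 in libraries labelled knockout and 1570.4 to 64497 in controls, and in olfactory bulb 52.6 to 86.4 in libraries labelled knockout and 61.1 to 128 in controls. Microglia, immune cells of the brain, had 0 of 12 markers called by limma in each region, none at 0 in any library, and summed levels in hippocampus of 2129.6 to 4717 in libraries labelled knockout and 2037 to 6272 in controls. In olfactory bulb their median log2 fold change was -0.85, with sums of 1626 to 2381 in libraries labelled knockout and 1930.2 to 5020 in controls, beside a median of -0.27 over the 30 members outside the Ifit cluster. Endothelial markers had a median of 0.79 in cortex, 0 of 10 called by limma and none at 0, with sums of 1179 to 4201 in libraries labelled knockout and 588 to 2281 in controls. Cortical labelled knockout 1, low in Isg15, Ifitm3 and Gbp2, had the lowest endothelial sum of the 3. The 10 genes of the response to tissue dissociation, none at 0, had medians of -1.06 in olfactory bulb and 0.56 in cortex. Their sums in hippocampus were 892 to 2369 in libraries labelled knockout and 426 to 6335 in controls. In brainstem the sums were 1152 to 10035 in libraries labelled knockout and 1038 to 6022 in controls. Control 1 held the highest dissociation sum of the controls in every region, with 4462 in olfactory bulb and 2409 in cortex. Labelled knockout 3 held the highest brainstem sum. All 7 oligodendrocyte markers had lower values in hippocampus, with a median of -0.74, 0 called by limma and sums of 13241 to 25667 in libraries labelled knockout and 18517 to 40046 in controls, and Cnp among them was called lower for the mean, at -0.37 (limma adjusted p = 0.0217). The ribosomal RNA gene Rn45s took 20.8% of reads in olfactory bulb labelled knockout 3, against 2.14% to 3.33% in the other 5 olfactory bulb libraries. Among the 12 astrocyte markers, edgeR and DESeq2 both called Aldh1l1 and Gfap in hippocampus, 1 higher and 1 lower. Both called Gfap lower in olfactory bulb, and DESeq2 called Gfap lower in cortex and Aqp4 higher in brainstem. For the mean effect edgeR called Aldh1l1, Gfap and Slc1a3, 2 higher and 1 lower. DESeq2 called these and Aqp4, 3 higher and 1 lower. The part of these markers and of ribosomal RNA in the results was not tested.

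The wider pathway was read from 5 further lists. Of 14 tested upstream sensors and adaptors, 3 fell for the mean effect, where 3.09% of all genes fell, by limma, edgeR and DESeq2 alike: Ticam1, an adaptor of Toll-like receptors, Tmem173 (STING), the adaptor of cytosolic DNA sensing, and Mavs, the adaptor through which Ddx58 and Ifih1 signal. Ticam1 had 39.8, 50.01 and 47.7 normalised reads in libraries labelled knockout, against 91.8, 99.3 and 147 in olfactory bulb controls, while in cortex the values were 42.2, 59.7 and 60.5 in libraries labelled knockout and 109, 99.4 and 79.2 in controls, apart in both, with a mean log2 fold change of -0.72 (limma adjusted p = 0.00659). Tmem173 had 26.2, 17.3 and 12 normalised reads in libraries labelled knockout, against 41.5, 53.98 and 29.4 in hippocampal controls, while in olfactory bulb the values were 8.16, 16.7 and 11.3 in libraries labelled knockout and 39.8, 33.1 and 25.2 in controls, apart in both. Its mean log2 fold change was -1.01 (limma adjusted p = 0.0136). Some Tmem173 values rest on few reads, such as 5.75 in brainstem labelled knockout 3, which is 1 read, and 3.06 in cortical labelled knockout 2. Mavs had 182, 199.7 and 173 normalised reads in libraries labelled knockout, against 312, 281 and 261 in hippocampal controls, while in brainstem the values were 164, 133 and 149 in libraries labelled knockout and 347, 216 and 196 in controls, apart in both. The mean log2 fold change of Mavs was -0.37 (limma adjusted p = 0.0362), and none of these 3 genes passed in a single region. Unlike the members, the 3 were not examined with single libraries left out, without the filter on low values or without the brainstem libraries. Groups overlapped in hippocampus and brainstem for Ticam1, in cortex and brainstem for Tmem173, and in olfactory bulb and cortex for Mavs. In olfactory bulb Mavs had 136, 128 and 156 in libraries labelled knockout and 124, 124 and 177 in controls. Of all genes, 5.65% in brainstem to 10.4% in hippocampus were lower without overlap.

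The other lists had 0 calls by limma in each region and for the mean. The interferon ligands and receptors, of which 5 of 16 were tested, had 0 members at an unadjusted p under 0.05 for the mean. The 12 further MHC class I genes had 4 and the 41 further interferon-induced genes 5, where all 5 were lower. The share of all genes at that unadjusted level was not computed, so these counts have no background. For the mean, 5.88% of all genes passed even the adjusted threshold. At the unadjusted level the 5 tested MHC class II genes had 0 for the mean and 1 in hippocampus, where their median log2 fold change was -1.37. Beside it, the 7 border macrophage markers had a median of -0.59 in hippocampus, 0 called by limma, with sums of 156 to 289 in libraries labelled knockout and 117 to 1012 in controls, and Cbr2 and Ms4a7 among them were at 0 in some library. edgeR and DESeq2 both called 1 of these markers, Lyve1, lower in hippocampus. The part of border macrophages in the MHC class II values was not tested. In the 4 pathway lists of this paragraph edgeR called none. DESeq2 called Eif2ak2, Tgtp1, Cd74 and H2-Eb1 lower in hippocampus, and for the mean effect Tgtp1 and 2 chaperones of MHC class I folding that went in opposite directions, Calr lower and Canx higher.

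Among controls alone, a part of the interferon genes stood highest in olfactory bulb. Against the mean of the other 3 regions, on the joint scale and at an absolute log2 fold change above 1, 10 of 34 members were higher and 0 lower in olfactory bulb, against 4.47% and 4.11% of 12759 genes, or 8.58% called in all. They were the 4 Ifit genes, Isg15, Cmpk2, Oasl2, Rtp4, Ifi35 and the immunoproteasome subunit Psmb8. B2m and H2-K1 passed the p threshold there and missed the fold threshold. Their log2 fold changes were 0.76 (limma adjusted p = 0.00514) and 0.73 (limma adjusted p = 0.0169). Cmpk2 had 475, 285 and 329.7 normalised reads in olfactory bulb controls, against 111, 71.4 and 104 in hippocampus, 111, 99.5 and 102 in cortex and 51.1, 62.7 and 79.3 in brainstem. Every olfactory bulb control was above all other controls, with a log2 fold change of 1.99 (SE 0.27, limma adjusted p = 3.36e-06). Ifit1 had 334, 133 and 101 in olfactory bulb controls, against 97.8, 32.4 and 21.5 in hippocampus, 16.2, 6.30 and 26.3 in cortex and 27.7, 32.4 and 55.7 in brainstem, a log2 fold change of 2.34 (SE 0.46, limma adjusted p = 0.000696). Oasl2, of the oligoadenylate synthetase-like family, had 656, 153 and 113 in olfactory bulb controls, against 81.2, 58.4 and 16.3 in hippocampus, 70.3, 10.1 and 29.4 in cortex and 90.5, 93.1 and 96.4 in brainstem, a log2 fold change of 2.08 (SE 0.64, limma adjusted p = 0.0354). Control 1 of olfactory bulb was the highest in all 3 genes. The Oasl2 call was lost without that library (1.32, limma adjusted p = 0.251), and narrowly, at limma adjusted p of 0.0507 to 0.0618, without olfactory bulb control 2, hippocampal control 3, cortical controls 2 and 3 or brainstem control 1. It was also lost with replicate number as a block (limma adjusted p = 0.0508).

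Without olfactory bulb control 1, 4 members were called, Cmpk2, Ifit1, Ifit3 and Ifit3b. These 4 held with each of the 12 controls left out in turn. Isg15, for example, had a log2 fold change of 1.61 (limma adjusted p = 0.0284) with that library and 0.83 (limma adjusted p = 0.387) without it. The level of Ifit3 in olfactory bulb controls was 399, 206 and 164 and that of Ifit3b 292, 237 and 131. In cortex controls 3 members were lower than in the other regions, Ifit1, Ifit2 and Ifi27, against 1.72% of genes lower and 3.49% called in all. Their log2 fold changes were -1.83 (limma adjusted p = 0.0131), -1.02 (limma adjusted p = 0.0245) and -1.03 (limma adjusted p = 0.0145). Without cortical control 2 none of the 3 was called, with limma adjusted p of 0.189, 0.224 and 0.126. Of the 3, Ifit1 alone was called without cortical control 3, olfactory bulb control 1 or hippocampal control 1, where the others missed the p or the fold threshold. Ifit2 was also lost without brainstem control 2 or 3, and Ifi27 without brainstem control 1. In brainstem controls Ifi27 was higher, with 796, 374 and 454 normalised reads and a log2 fold change of 1.01 (limma adjusted p = 0.00779), and Cmpk2 lower at -1.20 (limma adjusted p = 0.00181), where 5.56% of genes were higher and 4.26% lower, 9.81% in all. Without brainstem control 1 Ifi27 had a log2 fold change of 0.69 (limma adjusted p = 0.134), and without olfactory bulb control 3, hippocampal control 2 or cortical control 2 or 3 it was just under the fold threshold, at 0.88 to 0.99. Hippocampal controls had 0 called members against 1.73% of genes by limma, with 4 at an unadjusted p under 0.05, and edgeR and DESeq2 each called 1, Ifit3b. The share of all genes at that unadjusted level was not computed.

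Markers of other cell types and ribosomal RNA also differed among the control regions. In olfactory bulb controls 5 of 7 oligodendrocyte and 5 of 6 choroid plexus and ependymal markers were lower, with medians of -1.83 and -5.71. In brainstem controls 5 of 7 and 6 of 6 were higher, with medians of 1.38 and 3.21, beside the higher Ifi27 there. Choroid plexus and ependymal markers had 3 of 6 higher in hippocampal controls and 1 of 6 lower in cortex controls. Microglia markers had 0 of 12 called by limma in olfactory bulb, hippocampal and cortex controls and 1 of 12 lower in brainstem controls, and their median in olfactory bulb was 0.19. Rn45s took 0.966% to 2.93% of reads in olfactory bulb and hippocampal controls, against 18.0% to 25.6% in cortex and brainstem controls. The part of these in the control results was not tested.

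**Figure D5:**
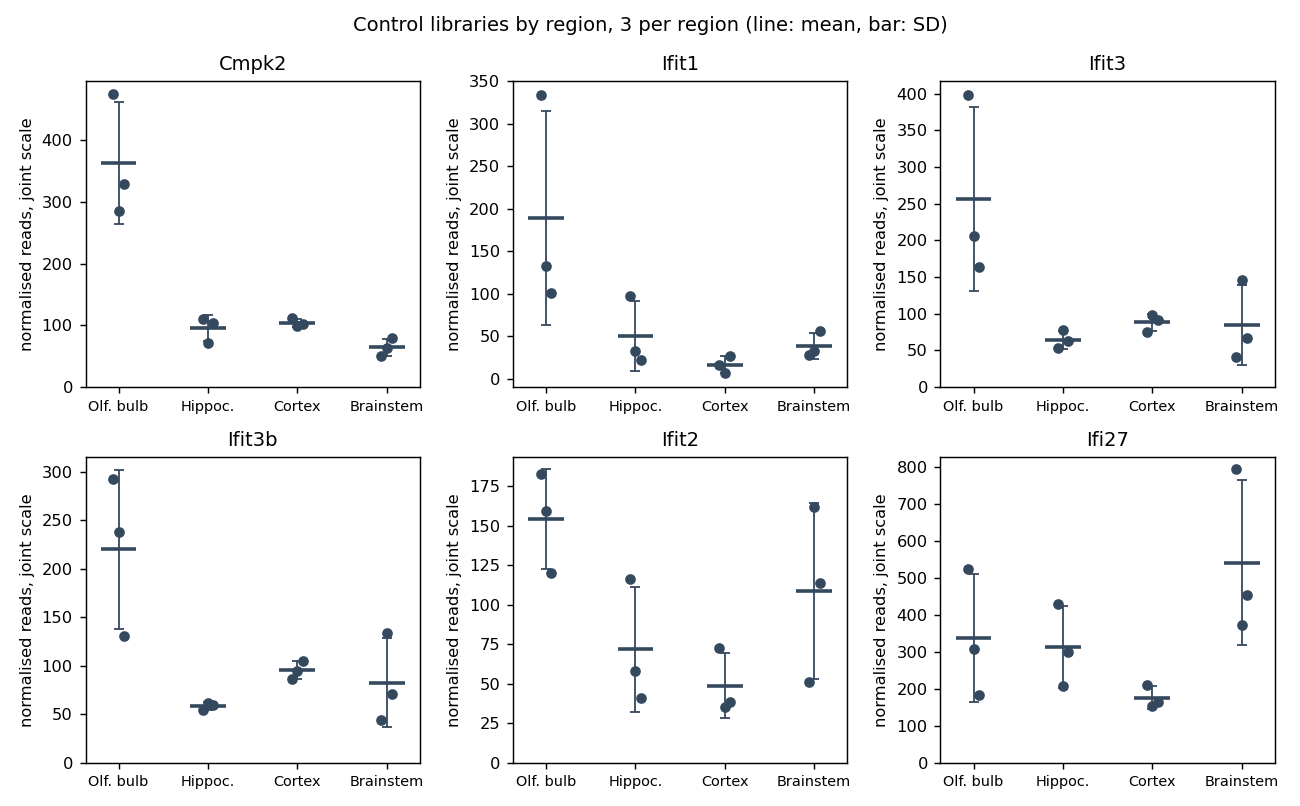
Normalised reads on the joint scale (y axis, linear) of 6 members in the control libraries of the 4 regions (x axis), with points for libraries, lines for means and bars for SD, n = 3. Cmpk2, Ifit1 and Ifit3 lie highest in olfactory bulb, and Ifi27 has its highest library in brainstem.

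Among further interferon-induced genes, 7 of 41 were higher and 1, Tgtp1, lower in olfactory bulb controls, where 4.47% and 4.11% of all genes were. Among the higher ones were Lgals3bp, with a log2 fold change of 1.08 (limma adjusted p = 5.51e-05), Gbp6 with 2.39 (limma adjusted p = 9.35e-05), Dtx3l with 1.32 (limma adjusted p = 0.000816) and the GTPase Irgm1 with 1.05 (limma adjusted p = 0.00369). Tlr4, a sensor of bacterial lipopolysaccharide, was higher there at 2.59 (limma adjusted p = 1.09e-05) and lower in brainstem controls at -1.63 (limma adjusted p = 0.00246). Tgtp1, a GTPase, was higher in brainstem controls at 1.40 (limma adjusted p = 0.0134). Unlike the members, these further genes were not examined with single libraries left out or under the other alternatives. How far their calls rest on olfactory bulb control 1 was therefore not tested.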

How the data were processed

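The deposited tables hold normalised signal, 1 table for each of the 24 libraries. Per the submitters' processing notes, FastQC, STAR 2.5.0a, DESeq2 1.20.0 and mm10 were used, with no role given. The counting tool, its annotation and its use of strand are not given in the sources used here. In every table the values were whole reads divided by a single factor, within 0.01 read, so reads and depth could be recovered. Cortical factors were 1.26 to 1.27 times those computed jointly, and the others 0.994 to 0.998 times, so comparisons between regions used reads rescaled jointly.

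The filter kept genes with 20 or more normalised reads in 3 or more libraries, 12673 on the deposited and 12759 on the joint scale. After adding 5, log2 values entered a limma 3.58.1 fit (R 4.3.3) with a mean per group, intensity trend and robust moderation, on 16 residual degrees of freedom. All p are two-sided, with Benjamini-Hochberg adjustment over the genes of a contrast and a threshold of 0.05, and between control regions the log2 fold change also had to exceed 1 in size. The fit was tested on simulated data. Alternatives were no filter, no fold threshold, an added constant of 1, edgeR 4.0.16 and DESeq2 1.42.0 on recovered reads, replicate number as a block, a correlation of libraries with the same genotype and number, subsets of libraries, each library left out, and Ifit3 and Ifit3b summed. Values in every library are given for members called in a knockout contrast, for the largest change per role group in regions with fewer than 3 calls, and for the 2 members per role group with the highest level per kb. A list of signal transducers is not reported here. Members and lists were chosen with earlier results of these data known. Gene length and position came from GENCODE vM21, and promoters from RefSeq.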

Additional observations from a re-analysis of the deposited data

How the results depend on the processing

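No result recomputed here changed direction under an alternative. Counts of called members per comparison moved as follows. Without the filter on low values, 3 members were called in hippocampus, 0 in cortex and 1 in brainstem. With an added constant of 1, 5 were called in cortex controls. edgeR called 0 in brainstem and 1 in hippocampal controls. DESeq2 called 2 in cortex, 1 in the difference among regions and 1 in hippocampal controls. With the libraries of a region alone, 2 were called in cortex and 0 in brainstem, and with the control libraries alone 1 in cortex controls. With no threshold on fold change, 1 was called in hippocampal and 5 in cortex controls. Leaving out 1 library gave 0 calls in olfactory bulb, in cortex and for the difference among regions, 1 to 4 in hippocampus, 0 to 3 in brainstem and 5 to 7 for the mean. For controls it gave 4 to 13 in olfactory bulb, 0 to 1 in hippocampus, 0 to 5 in cortex and 1 to 3 in brainstem. Summing Ifit3 and Ifit3b gave a cortical log2 fold change of 1.35 (limma adjusted p = 0.0398).

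Whether replicate numbers pair the libraries was not settled, as libraries of different numbers were not correlated for comparison. Knockout-labelled and control libraries of the same region and number correlated at -0.11 to 0.32 in their deviations, with 5 of 12 pairs over 0.1. Those of the same genotype and number in different regions correlated at -0.20 to 0.32, with 10 of 36 over 0.1. Libraries of control 1 passed 0.1 in 5 of their 6 pairs of regions. With the replicate block the counts were 0, 6, 1 and 2 in olfactory bulb, hippocampus, cortex and brainstem, 7 for the mean and 9 in olfactory bulb controls, where Oasl2 was lost. A correlation of 0.0165, fitted among libraries that share genotype and number, was used as another alternative and changed no count of called members. Depth limits the low members most: brainstem labelled knockout 3, with 1090777 reads, gives few reads to genes such as Tap1, Bst2 and Cmpk2, and the 6 untested members were not measured well enough to compare.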
